A study of Mus musculus with 22 samples.

Results

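The 5 loci of the VEGF receptors and neuropilins (Kdr, Flt1, Flt4, Nrp1 and Nrp2) were examined for open chromatin in retinal endothelial cells of mouse pups, by the position of ATAC-seq peaks. A peak was a member if its midpoint lay in a set window around a gene (mm9): chromosome 5 from 76.26 to 76.45 Mb for Kdr, chromosome 5 from 148.32 to 148.6 Mb for Flt1, chromosome 11 from 49.36 to 49.52 Mb for Flt4, chromosome 8 from 130.8 to 131.1 Mb for Nrp1 and chromosome 1 from 62.68 to 62.95 Mb for Nrp2. The windows held 96 of the 49558 gTKO peaks and 135 of the 57267 control peaks on chromosomes 1 to 19, X and Y. The gTKO pups were S1pr3-/- with S1pr1 flox/flox and S1pr2 flox/flox alleles and Rosa26-CreERT2, a tamoxifen-dependent recombinase driven from a locus that is active in most cell types, so that recombination was not limited to endothelium. The control pups had the same S1pr alleles, including the loss of S1pr3, without the recombinase. These genes encode receptors for sphingosine 1-phosphate, a lipid mediator carried in blood. Both groups were C57BL/6, were injected with 100 µg tamoxifen between postnatal days 1 and 3, and were used at postnatal day 6, although the cell type entry of the labels calls the sorted cells adult. Presence of the recombinase and loss of the floxed genes cannot be told apart in this design. Each genotype had 3 ATAC-seq libraries of 5000 to 8000 sorted cells, each from the pooled retinas of 4 to 6 pups, but is represented by 1 deposited peak list. The values therefore carry no replicate error, no test between genotypes was possible, and the read depth behind the lists is unknown. The lists hold no marker levels by which the cell type could be checked, and the windows were not checked against an mm9 gene annotation, so peaks are given by position and locus and not as promoters, introns or enhancers.

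VEGF receptors are tyrosine kinases on endothelial cells that bind the vascular endothelial growth factors, and neuropilins are co-receptors that bind some of the same ligands together with class 3 semaphorins. Kdr encodes VEGFR2, the main signalling receptor for VEGF-A in blood vessels. Flt1 encodes VEGFR1, which binds VEGF-A tightly but signals weakly, and whose soluble form traps the ligand. Flt4 encodes VEGFR3, the receptor for VEGF-C and VEGF-D, found in lymphatic vessels and in sprouting blood vessels. Nrp1 and Nrp2 encode the neuropilins, of which Nrp1 acts mainly with VEGF-A and Nrp2 mainly with VEGF-C. In the retina of a newborn mouse, sprouts guided by VEGF-A extend the vessel network from the optic nerve outward. ATAC-seq marks open chromatin, where the Tn5 transposase can cut and tag DNA.

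The 250 bases before the annotated start of 3 of the genes are given below from RefSeq on GRCm38.p6, because Kdr and Flt1 had the most peaks and Nrp1 had the widest one. Their coordinates are not those of the mm9 peaks, and which peak holds them was not determined. Capitals mark matches, on either strand, to the letters searched. These were the AP-1 site TGANTCA, the cyclic AMP response element TGACGTCA, and CCGGAA as a form of the ETS site. The others were the GC box GGGCGG, the TATA box TATAAA and the GATA site AGATAA. Other forms of these sites were not searched.
Kdr, chr5:75978456-75978705, minus strand: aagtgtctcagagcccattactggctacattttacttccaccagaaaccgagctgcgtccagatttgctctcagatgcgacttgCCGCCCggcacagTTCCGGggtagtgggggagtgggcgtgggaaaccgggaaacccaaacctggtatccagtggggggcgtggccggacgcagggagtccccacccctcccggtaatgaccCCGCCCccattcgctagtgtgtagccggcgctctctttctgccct
Flt1, chr5:147726012-147726261, minus strand: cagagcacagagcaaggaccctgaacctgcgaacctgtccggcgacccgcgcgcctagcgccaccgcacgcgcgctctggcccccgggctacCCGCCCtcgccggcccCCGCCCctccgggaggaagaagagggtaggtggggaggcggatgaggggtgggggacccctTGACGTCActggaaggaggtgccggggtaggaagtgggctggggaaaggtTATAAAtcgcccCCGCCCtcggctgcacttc
Nrp1, chr8:128358823-128359072, plus strand: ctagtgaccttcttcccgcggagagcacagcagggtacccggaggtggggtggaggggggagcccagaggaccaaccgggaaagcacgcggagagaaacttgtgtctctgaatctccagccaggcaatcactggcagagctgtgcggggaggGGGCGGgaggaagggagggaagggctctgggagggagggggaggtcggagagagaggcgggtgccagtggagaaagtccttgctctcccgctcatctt

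The AP-1 site, which Jun and Fos proteins bind, is named in the title of the study. Its letters were found in 0 of the 5 genes' upstream stretches and in 6.75% of all 32851 RefSeq promoter entries. At so low a share, 0 of 5 is close to the background. The Flt1 stretch held TGACGTCA with its first base 81 bases before the start and TATAAA 31 bases before it. TGACGTCA occurred in 1.55% of all entries and TATAAA in 12.4%. The Kdr stretch held CCGGAA (12.0% of entries) and 2 GC boxes. Every one of the 5 genes had at least 1 GC box, from 1 in Nrp1 to 5, of which 2 overlap, in Nrp2, against 32.7% of all entries with any. The 5 stretches were rich in G and C, between 61.6% for Kdr and 72.4% for Nrp2, where the median of all entries was 52.4%. A match of letters is a description and not a measured binding site.

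The first comparison asked how much open chromatin was called at the 5 loci in each genotype. Fewer peaks and less sequence were called in gTKO cells. The gTKO list had 96 peaks covering 49.0 kb, and the control list had 135 peaks covering 75.8 kb. The ratio of covered sequence (gTKO over control) was 0.647, and over the whole lists it was 0.771. Mean peak width was 511 bp in gTKO and 562 bp in control at these loci, against 489 and 549 bp over the whole lists. Of the sequence covered at the loci, 96.1% of the gTKO total and 62.1% of the control total lay in both lists, against 92.8% and 71.5% over the whole lists. Nearly all sequence called open at these loci in gTKO was thus also called in control. Depth acts on the number and width of all peaks of a list and could not be compared, and in bulk cells fewer open cells and less opening per cell cannot be told apart.

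Peaks without a partner lay mostly in the control list. gTKO-only peaks, meaning gTKO peaks that shared no base with a control peak, numbered 4 of 96 at the 5 loci. This was 4.17% (exact 95% interval 1.15 to 10.3%), where 9.75% of all gTKO peaks were gTKO-only. Control-only peaks, defined in the same way, numbered 51 of 135, or 37.8% (29.6 to 46.5%), where 27.0% of all control peaks were control-only. The intervals cover counting error only and treat neighbouring peaks as independent. The excess over the control background rested on Flt1 and Nrp2. With Flt1 left out, 25 of 81 control peaks were control-only (30.9%, 21.1 to 42.1%). With Flt1 and Nrp2 both left out, 14 of 58 were (24.1%, 13.9 to 37.2%). With Nrp1 left out, the gTKO-only peaks numbered 2 of 84. Of the peaks of at least 300 bp, 0 gTKO peaks and 12 control peaks had no partner of any width. Between 300 and 499 bp these were 0 of 20 gTKO and 10 of 26 control peaks, against 4.28% and 19.1% in the whole lists. Between 500 and 999 bp they were 0 of 33 and 2 of 30, against 0.136% and 3.65%.

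**Figure D1:**
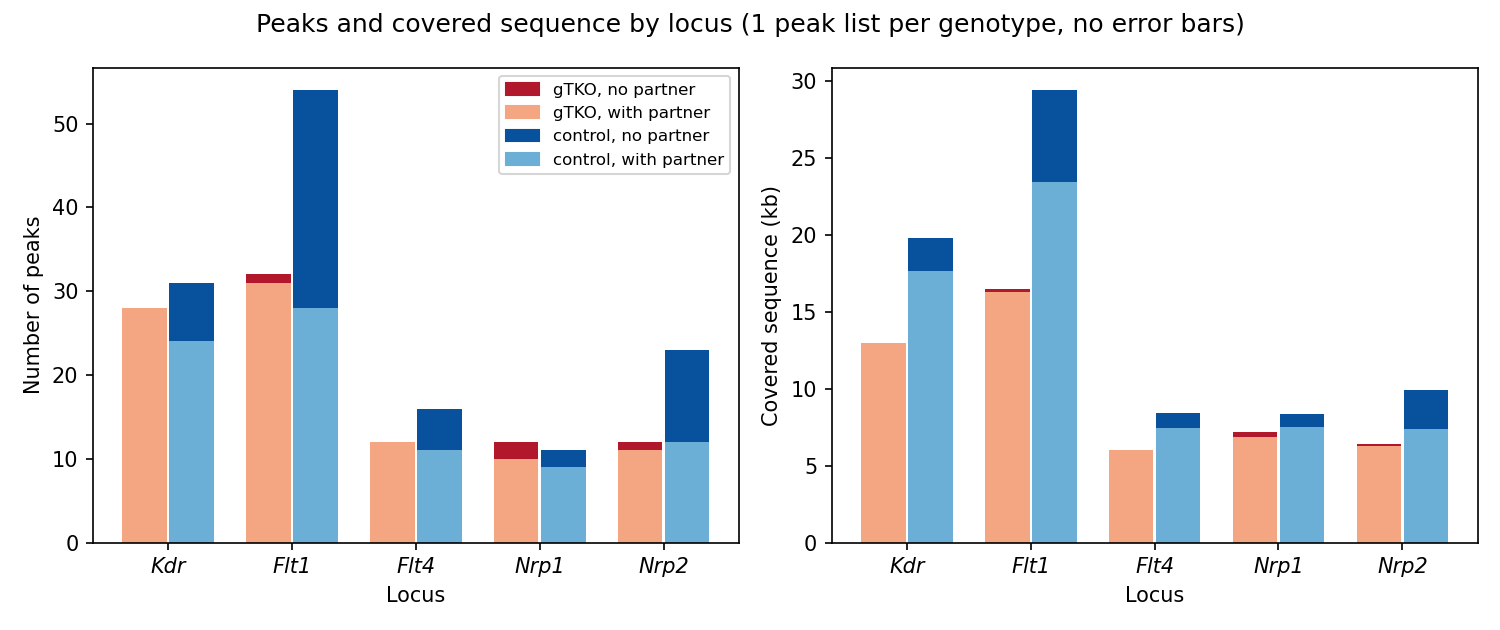
Number of peaks (left) and covered sequence in kb (right) at each locus, with the gTKO bar left of the control bar and the dark part of a bar for peaks without a partner in the other list. Flt1 has the tallest control bars, 54 peaks and 29.4 kb, and Nrp1 is the locus where the gTKO bar is the taller one in number, 12 against 11 peaks.

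Kdr had the smallest difference in number of peaks among the 3 receptor genes. The gTKO list held 28 peaks covering 12.9 kb, and the control list held 31 peaks covering 19.8 kb, a covered ratio of 0.654. All 28 gTKO peaks at Kdr overlapped a control peak. A count of 0 gTKO-only peaks of 28 allows a share of up to 10.7%, taking 3 counts as the limit. The exact 95% interval, as used for the other shares, ends at 12.3%. Of the 31 control peaks, 7 were control-only (22.6%, interval 9.59 to 41.1%), and 11 were if at least 50% of the peak had to be covered. The share of the whole control list under that stricter rule was not computed, so the count of 11 has no background beside it. The difference in coverage at this locus came with narrower gTKO peaks. Peaks of 1000 bp or more numbered 1 of 28 in gTKO and 5 of 31 in control, and such peaks made up 10.8% of the whole gTKO list and 15.3% of the whole control list.

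At the widest control peak of the Kdr locus the 2 lists were cut differently. The gTKO list had 3 separate peaks there, of 307, 849 and 162 bp, from 76373632 to 76373938, from 76374072 to 76374920 and from 76375194 to 76375355. The control list had a single peak of 1740 bp from 76373668 to 76375407, of which the gTKO peaks covered 73.7%. A second stretch had gTKO peaks of 150 bp (from 76366009 to 76366158) and 508 bp (from 76366291 to 76366798) where the control list had 1 peak of 815 bp, from 76366014 to 76366828. The third had gTKO peaks of 189 bp (from 76333795 to 76333983) and 190 bp (from 76334022 to 76334211) against 1 control peak of 292 bp, from 76333925 to 76334216. The widest gTKO peak of the locus, 1137 bp from 76329434 to 76330570, lay wholly inside a control peak of 1205 bp, from 76329409 to 76330613, so this peak was nearly as wide in gTKO. Of the control-only peaks at Kdr, 3 measured at least 300 bp. The widest, 564 bp from 76414505 to 76415068, was 1978 bp from the nearest gTKO peak. The others, 402 bp from 76317842 to 76318243 and 365 bp from 76342085 to 76342449, lay 295 and 277 bp from a gTKO peak, beside peaks called in both lists.

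Flt1 had the most peaks and the widest gap between the lists in absolute number of peaks and in covered sequence. The number of gTKO peaks over control peaks was 0.593 here and lower at Nrp2, 0.522. The gTKO list held 32 peaks covering 16.5 kb, and the control list held 54 peaks covering 29.4 kb, so that the covered ratio, 0.560, was the lowest of the 5 loci. Of the gTKO peaks, 1 was gTKO-only (3.12%, interval 0.0791 to 16.2%). Of the control peaks, 26 were control-only (48.1%, interval 34.3 to 62.2%). The control-only peaks at Flt1 were narrow, from 150 to 394 bp, with a median of 212 bp, and control peaks with a partner had a median of 658 bp. With the control list reduced to its widest peaks, as many as in the gTKO list, 16 control peaks at Flt1 were control-only. The reduction removes the narrowest control peaks, which lacked a partner most often. The control-only share of the reduced whole list was not computed, so this count has no background beside it. The single gTKO-only peak measured 186 bp, from 148421840 to 148422025, and lay 871 bp from a control peak.

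A run of 10 consecutive control-only peaks stood at the low-coordinate end of the Flt1 window. No gTKO peak was called in this stretch, while the control peaks ran from 148357280 to 148378198, a span of 20.9 kb, with widths of 150 to 346 bp and 2224 bp covered in all. The nearest gTKO peak was 8.01 kb away. In the whole control list, 30 runs held 10 or more consecutive control-only peaks, and 28 of these fitted within 30 kb, holding 2.51% of all control-only peaks. With the run left out, 16 of the other 44 control peaks at Flt1 were control-only (36.4%, interval 22.4 to 52.2%). Of the 16 control-only peaks at Flt1 outside this run, 11 stood in 5 further runs of 2 or 3 and 5 stood singly. Within 1 kb of a gTKO peak lay 7 of the 26 (26.9%), against 29.0% of all control-only peaks.

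**Figure D2:**
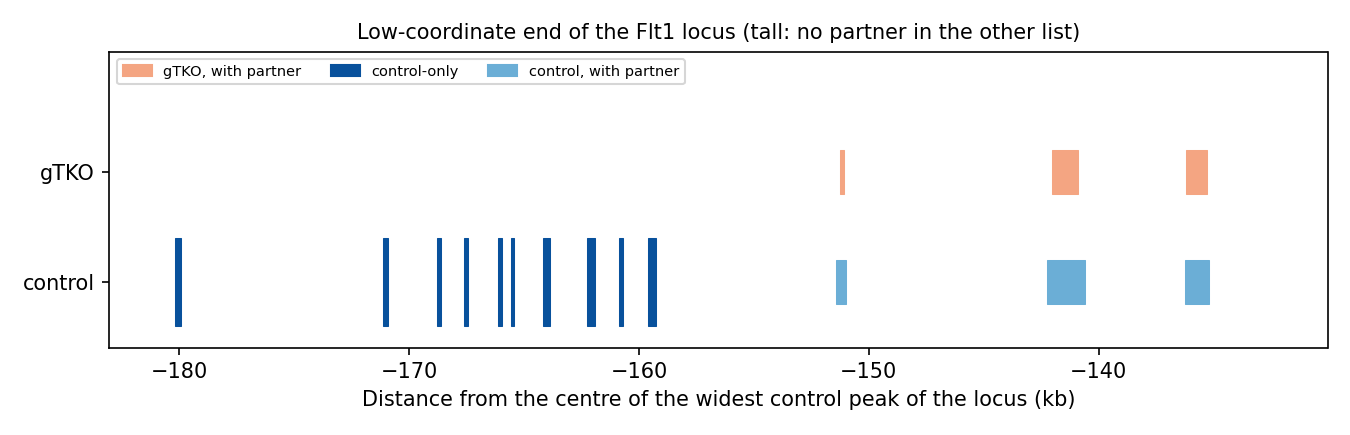
Peaks at the low-coordinate end of the Flt1 locus, gTKO above control, by distance in kb from the centre of the widest control peak of the locus, with tall bars for peaks without a partner. The 10 tall control bars on the left have no gTKO peak beside them, and the 3 control peaks on the right each have a gTKO partner.

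The widest peak at Flt1 was present in both lists at nearly the same width, 1763 bp from 148536545 to 148538307 in gTKO and 1898 bp from 148536504 to 148538401 in control. Elsewhere in the locus, 3 of the 54 control peaks (5.56%) were broken up in gTKO, against 5.28% in the whole control list. The gTKO list had peaks of 807 and 566 bp, from 148456793 to 148457599 and from 148457723 to 148458288, inside 1 control peak of 1849 bp from 148456503 to 148458351. It had peaks of 225 and 245 bp, from 148564423 to 148564647 and from 148564662 to 148564906, which covered 49.8% of a control peak of 944 bp, from 148564087 to 148565030. Another pair of gTKO peaks, of 333 bp (from 148462765 to 148463097) and 267 bp (from 148463117 to 148463383), lay inside a control peak of 787 bp, from 148462599 to 148463385. In the order given, the gTKO peaks inside these control peaks were 123, 14 and 19 bp apart, so the last breaks were short ones. Of the control-only peaks, 6 measured at least 300 bp. They were the peaks of 394 bp from 148455368 to 148455761, 373 bp from 148559638 to 148560010, 366 bp from 148527021 to 148527386 and 315 bp from 148473355 to 148473669, and 2 peaks of the run, of 346 bp from 148377853 to 148378198 and 325 bp from 148375202 to 148375526. Outside the run, these wider control-only peaks lay 1031 to 2952 bp from a gTKO peak.

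Flt4 showed fewer differences. The gTKO list held 12 peaks covering 6.04 kb and the control list 16 peaks covering 8.42 kb, a covered ratio of 0.717. The gTKO list had 0 gTKO-only peaks of 12, for which the limit of 3 counts is 25.0% and the exact interval ends at 26.5%. The control list had 5 control-only peaks of 16 (31.2%, interval 11.0 to 58.7%). All 5 were narrow, from 162 to 250 bp. The widest of them, from 49442113 to 49442362, was 2367 bp from the nearest gTKO peak. At the widest peak of the locus the gTKO list had peaks of 1158 bp (from 49422811 to 49423968) and 286 bp (from 49423983 to 49424268), which covered 84.4% of a control peak of 1711 bp, from 49422590 to 49424300. The gTKO peaks at this place were 14 bp apart, so the break was a short one.

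Nrp1 was the locus most alike between genotypes. The gTKO list held 12 peaks covering 7.20 kb and the control list 11 peaks covering 8.33 kb, a covered ratio of 0.865. gTKO-only peaks numbered 2 of 12 (16.7%, interval 2.09 to 48.4%), and control-only peaks also 2, of 11 (18.2%, interval 2.28 to 51.8%). The shares of the whole lists, 9.75% and 27.0%, lie inside these wide intervals. The widest peaks of all 5 loci were here. The gTKO list had a peak of 2979 bp from 130880808 to 130883786 and one of 281 bp from 130883814 to 130884094, where the control list had 1 peak of 3360 bp, from 130880678 to 130884037, of which 95.3% was covered in gTKO. The gTKO-only peaks measured 203 bp (from 130975100 to 130975302), 129 bp from a control peak, and 156 bp (from 131052937 to 131053092). The control-only peak of 626 bp, from 131086536 to 131087161, was the widest one-list peak of the 5 loci, and lay 33443 bp from the nearest gTKO peak. Within the window it stood alone at the high-coordinate end. The other control-only peak, of 182 bp from 130896917 to 130897098, was 225 bp from a gTKO peak.

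Nrp2 differed mainly in small peaks. The gTKO list held 12 peaks covering 6.42 kb, and the control list held 23 peaks covering 9.92 kb, a covered ratio of 0.647. Of the gTKO peaks 1 was gTKO-only (8.33%, interval 0.211 to 38.5%), and of the control peaks 11 were control-only (47.8%, interval 26.8 to 69.4%). The control-only peaks measured 151 to 477 bp with a median of 209 bp, and they numbered 7 with peaks up to 200 bp apart merged. The control-only share of the merged whole list was not computed. The 2 broadest peaks of the locus had about the same width in both lists. The gTKO peak of 1313 bp from 62752571 to 62753883 faced a control peak of exactly 1313 bp, from 62752584 to 62753896, shifted by 13 bp. The other, 1211 bp from 62749369 to 62750579 in gTKO, faced 1319 bp from 62749271 to 62750589 in control. Control-only peaks of at least 300 bp were those of 477 bp, from 62799630 to 62800106, and 368 bp, from 62756407 to 62756774, which lay 2342 and 1994 bp from a gTKO peak. The gTKO-only peak measured 164 bp, from 62766842 to 62767005. Nrp2 also had the only case at the 5 loci of 1 gTKO peak across several control peaks: 689 bp from 62794034 to 62794722 in gTKO, against 166 bp (from 62794073 to 62794238) and 483 bp (from 62794257 to 62794739) in control.

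**Figure D3:**
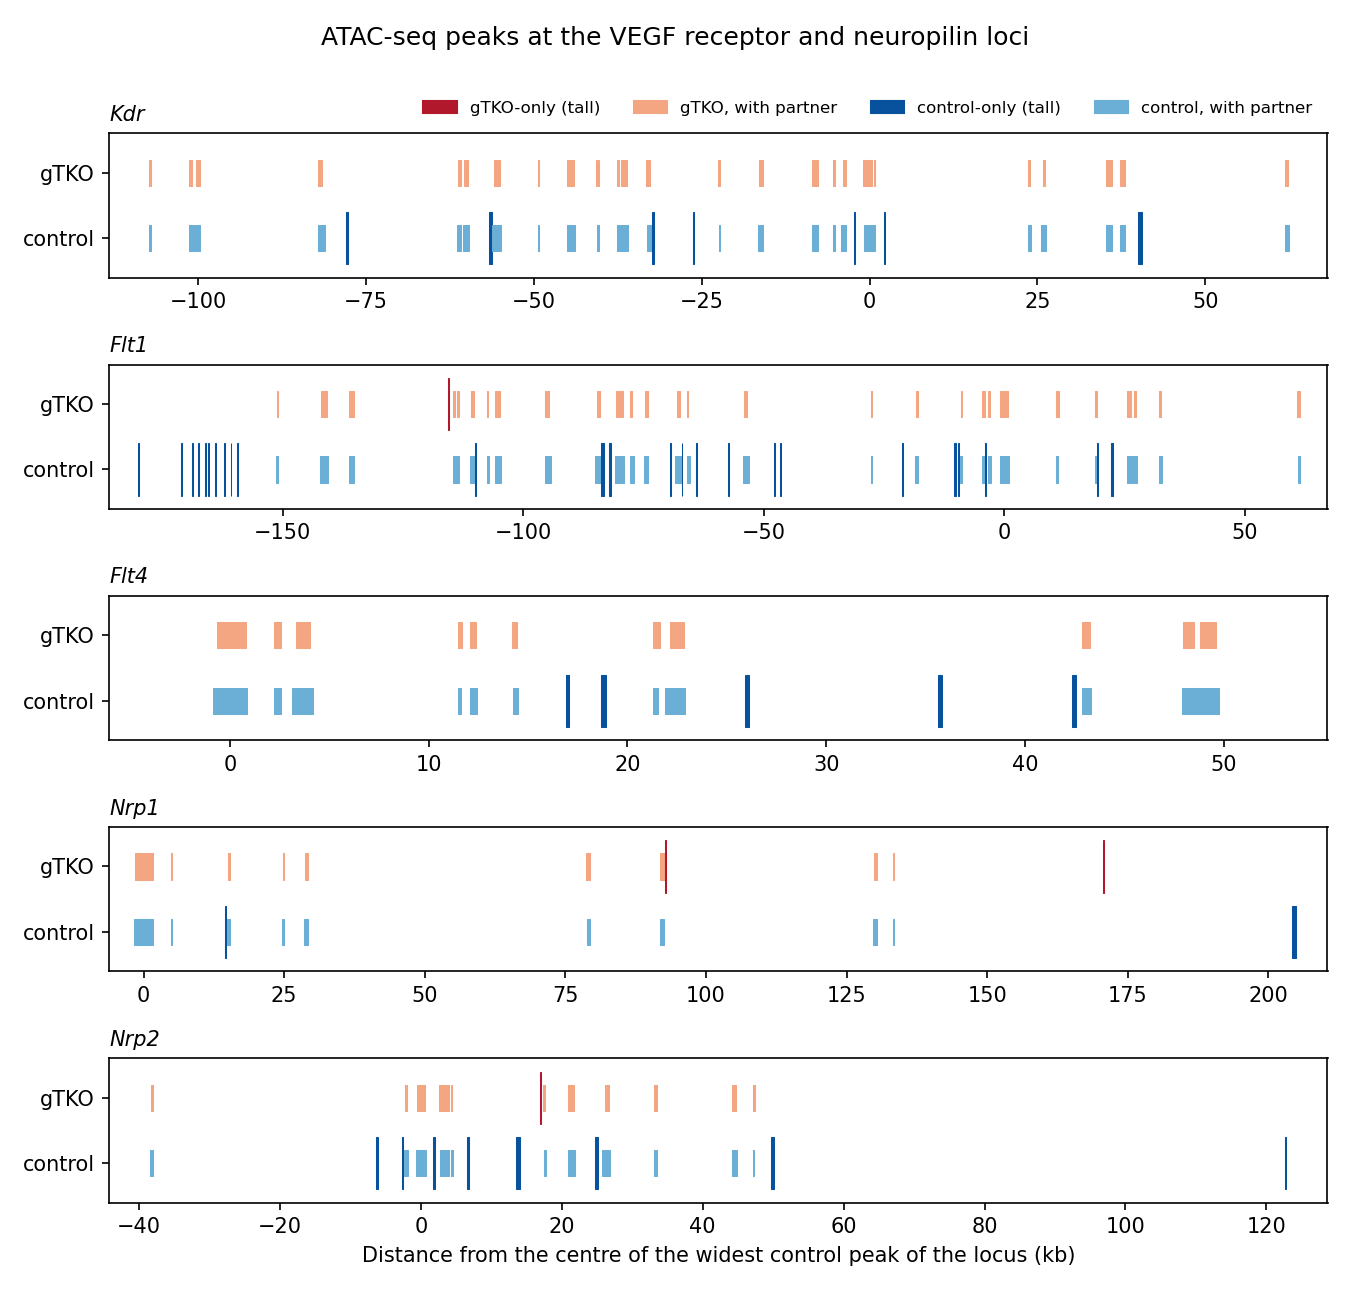
Maps of the 5 loci, gTKO above control, with peaks drawn to scale along an axis of distance in kb from the centre of the widest control peak of each locus, each panel on its own scale. Tall dark bars are peaks without a partner, of which there are 4 in the gTKO tracks and 51 in the control tracks.

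Over all 5 loci, a gTKO peak that spanned 2 or more control peaks was found in 1 case of 96, against 1.07% in the whole gTKO list. The reverse, a control peak across 2 or more gTKO peaks, was found in 8 of 135 (5.93%), 3 at Kdr, 3 at Flt1 and 1 each at Flt4 and Nrp1. In the whole control list 5.28% of peaks did so. Broken peaks were thus about as frequent at these loci as in the lists.

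Widths were next compared in 1-to-1 pairs, in which a gTKO peak and a control peak overlapped each other and no further peak. The gTKO peak was the narrower one in most pairs at each of the 5 loci. Of 74 pairs, the gTKO peak was wider in 11 (14.9%, interval 7.66 to 25.0%), against 19.9% of all 37878 pairs of the lists. It was narrower in 62, or 83.8%, against 79.5% of all pairs. The median width was 432 bp in gTKO and 639 bp in control, and the median ratio (gTKO over control) was 0.766, where that of all pairs was 0.866. Counting only the 57 pairs whose widths differed by at least 10%, the gTKO peak was wider in 7.02%. That share was not computed for all pairs of the lists, so it has no background beside it. Without this limit, the share of pairs with the wider gTKO peak was close to the background. The median ratio was lower than its background. The pairs at these loci were also wider than those of the lists, whose median control width was 476 bp, so ratios were set side by side within width classes of the control peak. For control peaks of 1000 bp or more, the median ratio was 0.680 at the loci (20 pairs) and 0.873 over the lists. For those of 500 to 999 bp it was 0.710 (25 pairs) and 0.820, and for those of 300 to 499 bp 0.803 (15 pairs) and 0.804. In the narrower classes it was higher at the loci, 0.941 (12 pairs) and 0.892 for 200 to 299 bp, and 1.44 (2 pairs) and 1.04 for 150 to 199 bp. Of the 74 pairs, 46 (62.2%) had a ratio under the median of their class, 14 of 21 at Kdr, 18 of 25 at Flt1, 4 of 10 at Flt4, 3 of 8 at Nrp1 and 7 of 10 at Nrp2.

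Among the loci, the median width ratio of pairs was 0.720 at Kdr (21 pairs), 0.658 at Flt1 (25 pairs), 0.871 at Flt4 (10 pairs), 0.863 at Nrp1 (8 pairs) and 0.772 at Nrp2 (10 pairs). Flt4 and Nrp1 stood close to the median of all pairs, and Flt1 was lowest. At Flt1 the gTKO peak was wider in 1 of 25 pairs, and that pair, 605 bp from 148598406 to 148599010 in gTKO and 386 bp from 148598513 to 148598898 in control, lay 0.99 kb from the end of the window. At Kdr it was wider in 3 of 21 pairs, at Flt4 in 3 of 10, at Nrp1 in 3 of 8 and at Nrp2 in 1 of 10. The lowest ratio, 0.276, was that of a Flt1 pair with 178 bp in gTKO, from 148471598 to 148471775, and 644 bp in control, from 148471530 to 148472173. The lowest at Kdr was 0.394, with 333 bp in gTKO from 76273235 to 76273567 and 846 bp in control from 76273101 to 76273946.

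**Figure D4:**
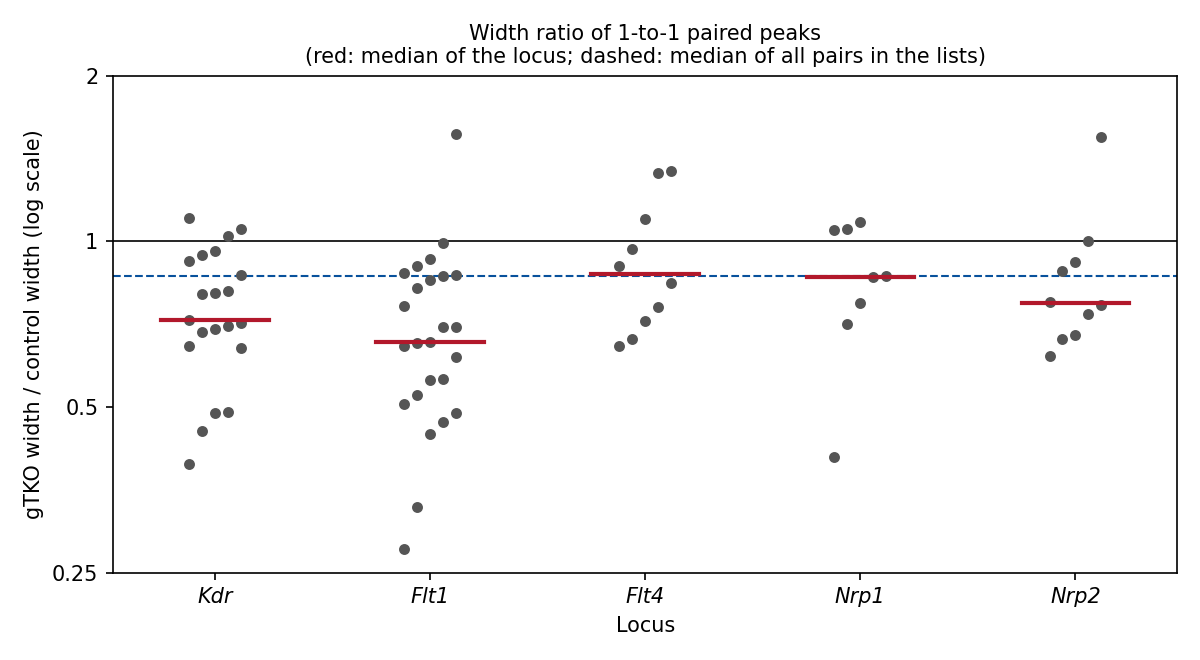
Width of the gTKO peak divided by the width of the control peak for each 1-to-1 pair (points, log axis) by locus, with the median of the locus in red and the median of all 37878 pairs, 0.866, as a dashed line. Most points lie under 1, and the Flt1 and Kdr medians, 0.658 and 0.720, lie under the dashed line.

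The gTKO peaks were shorter at both ends. Over the 74 pairs the gTKO peak began a median of 57.5 bp after the control peak and ended a median of 58.0 bp before it, against 30.0 bp at both ends over all pairs. At Flt1 the median offsets were 68.0 bp at the start and 109 bp at the end, and at Kdr 69.0 and 65.0 bp. They were 49.0 and 58.5 bp at Nrp2, but 6.5 and 45.5 bp at Flt4 and 57.0 and 7.0 bp at Nrp1. The pairs at the loci were wider than those of the lists, and offsets were not compared within width classes. The gTKO peak lay wholly inside its control peak in 54 of 74 pairs (73.0%, against 62.7% of all pairs), and the control peak lay wholly inside the gTKO peak in 4. Midpoints moved little: the median distance between them was 27.8 bp at the loci and 25.5 bp over all pairs.

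Narrow peaks lacked a partner more often than wide ones, at these loci as in the whole lists, so the counts were also set beside the shares of the same width class. In the class of 150 to 199 bp, 3 of 15 gTKO peaks at the loci had no partner (20%, against 26.2% of the whole list). For control peaks of that class it was 25 of 28 (89.3%, against 66.4%). Between 300 and 499 bp, 0 of 20 gTKO peaks had none (4.28% in the whole list), and 10 of 26 control peaks had none (38.5%, against 19.1%). From 1000 bp upward, 0 of 8 gTKO peaks and 0 of 24 control peaks lacked a partner, as did 0 of 5348 and 41 of 8738 (0.469%) in the whole lists.

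Had each peak lacked a partner as often as all peaks of its width class in the list, 7.52 gTKO-only and 35.1 control-only peaks would have been counted, where 4 and 51 were found. For gTKO-only peaks the counts were 0 against 2.16 at Kdr and 1 against 2.52 at Flt1, and they differed by less than 1 at the other loci. For control-only peaks the difference was largest at Flt1, with 26 against 14.5. At Nrp2, the 11 control-only peaks compared with 8.0 by width. At Kdr (7 against 5.56), Flt4 (5 against 5.10) and Nrp1 (2 against 2.0), control-only peaks were about as many as their widths would give. These are sums of shares over 1 list per genotype and no test.

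**Figure D5:**
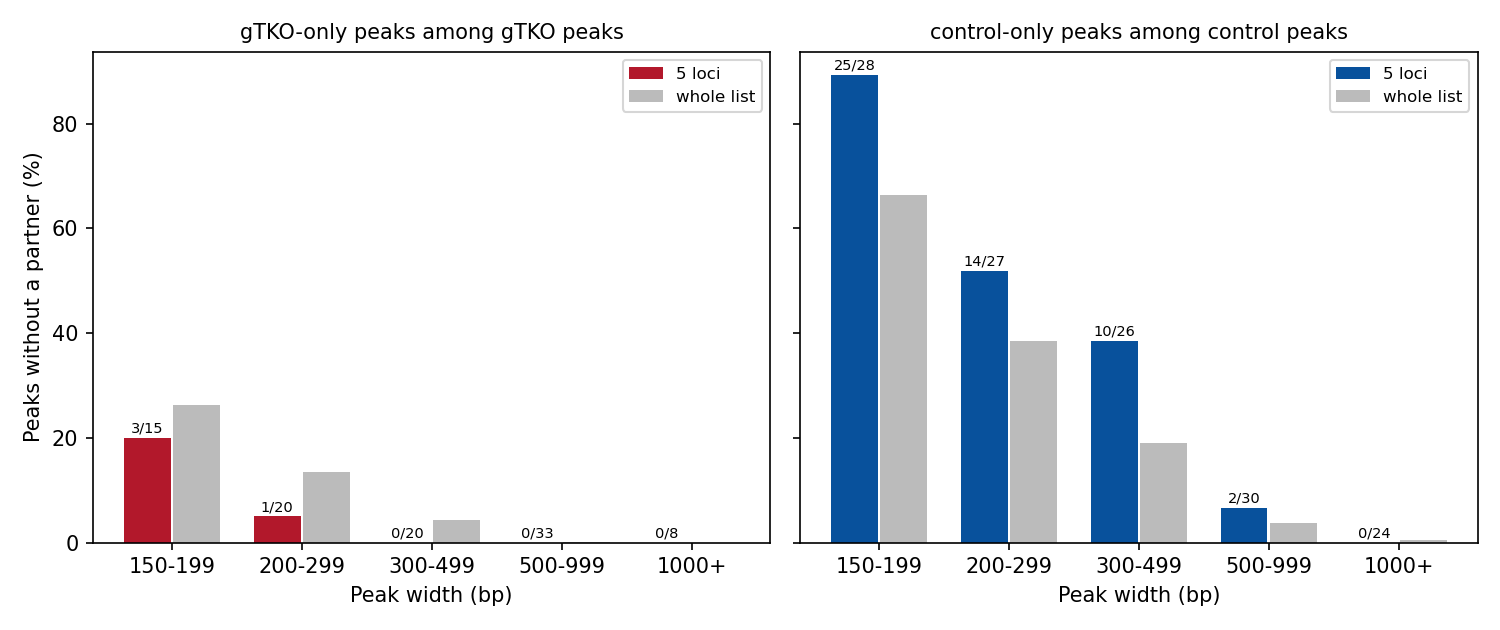
Share of peaks without a partner (%) by peak width, for gTKO peaks (left) and control peaks (right), with the 5 loci in colour, the whole list in grey and the counts at the loci above the bars. For control peaks the coloured bar is higher than the grey one in the 4 classes under 1000 bp, and for gTKO peaks it is lower in the classes from 150 to 499 bp.

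The loci were rich in peaks in both genotypes, most of all Kdr and Flt1. Per 100 kb of window, Kdr had 14.7 peaks in gTKO and 16.3 in control, Flt1 11.4 and 19.3, Flt4 7.50 and 10.0, Nrp2 4.44 and 8.52, and Nrp1 4.0 and 3.67. The order of the loci in gTKO was Kdr, Flt1, Flt4, Nrp2, Nrp1, and in control Flt1 came before Kdr, with no replicate error to place between neighbours in either order. To show how common such densities were, the placed chromosomes were cut into consecutive windows of the length of each locus. Of 9440 windows of 280 kb, 1.09% held as many gTKO peaks as Flt1, and 0.381% held as many control peaks. Of 13905 windows of 190 kb, 0.554% held as many gTKO peaks as Kdr, and 0.863% held as many control peaks. Nrp1 was the least dense, with 12 gTKO and 11 control peaks where the mean of 300 kb windows was 5.62 and 6.50, and 16.9% and 21.6% of these windows held as many.

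Of the same 9440 windows of 280 kb, 0.265% held as many control-only peaks as the 26 at Flt1. Of 2105 windows of 280 kb with 10 or more control peaks, 6.94% had a control-only share of 48.1% or higher, and their median share was 25.0%. For Nrp2, 6.91% of 2113 windows had a share as high. For windows of the length of the other loci, the figure was 31.9% for Flt4, 55.5% for Kdr and 71.4% for Nrp1. These windows were not matched to the loci in number of peaks, and Flt1 held 54 control peaks and Nrp2 23. Shares vary more by counting where peaks are few. The windows can also hold peaks that belong to neighbouring genes. In GRCm38 the next protein-coding genes are Kit and Srd5a3 beside Kdr, Pan3 and Pomp beside Flt1, and 1700024J04Rik and Scgb3a1 beside Flt4. They are Pard3 and Itgb1 beside Nrp1, and Pard3b and Ino80d beside Nrp2.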

How the data were processed

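ATAC-seq peak positions in retinal endothelial cells were analysed for 2 genotypes, gTKO and control, each with 3 libraries whose labels name the same deposited peak list. Per the submitters' processing notes, Bowtie2, Picard, MACS2 and bedtools were among the tools and the build was mm9. The sources used here state no calling threshold or filters, nor whether reads were pooled. Both deposited lists have 3 columns (sequence, start, end) and no score, so a stricter threshold was replaced by a smallest width. No peak was under 150 bp, and width depends on depth and threshold.

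Peaks on unplaced sequences (620 gTKO, 1044 control) were left out. A partner was a peak of the other list sharing at least 1 bp. Covered bp is the sum of peak widths. Shares have exact Clopper-Pearson 95% intervals, and the limit for a count of 0 is 3 counts of the total. The code for overlaps was checked on lists simulated by trimming or splitting control peaks and planting separate gTKO peaks. The simulated lists held no gTKO peak across several control peaks, so that class was not checked. Peaks are named by a fixed rule: the widest peak and the widest one-list peak of each list and locus, one-list peaks of at least 300 bp, and up to 3 peaks per locus and list that span several of the other list. The pair of lowest ratio at Flt1 and Kdr, the wider gTKO pair at Flt1, the narrower of the Nrp1 one-list peaks, the second broad Nrp2 pair and the run at Flt1 were chosen after their values were seen. The loci and the comparisons were chosen with earlier results of these data known. A planned list of VEGF ligands, semaphorins and plexins needs an mm9 annotation and was not run. The 16 RNA-seq libraries were not analysed here. Calculations used Python 3.11.15, numpy 2.4.6, pandas 2.3.3, scipy 1.17.1 and matplotlib 3.10.9.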

Additional observations from a re-analysis of the deposited data

How the results depend on the processing

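For the 5 loci together, 44 of 49 alternative values stayed within 1.5 times of the reported count or ratio, or inside the interval of the reported share. With peaks of at least 300 bp, gTKO-only peaks numbered 1 and control-only peaks 22, but 1 and 10 of these overlap a narrower peak that the minimum removed, as do 7 of 13 control-only peaks at Flt1, 1 of 4 at Kdr and 1 of 3 at Nrp2. With pairs that differed by at least 10%, the gTKO peak was wider in 7.02%. With the Nrp1 locus left out, gTKO-only peaks numbered 2, and with the Flt1 locus left out, control-only peaks numbered 25. Leaving out loci was chosen after seeing the data, and it recounts part of the same peaks. Counting any peak that overlapped a window returned the reported values unchanged. None of these alternatives was run on the whole lists, so their values have no background beside them. Covered ratios ran from 0.620 (Nrp1 left out) to 0.702 (Flt1 left out). For single loci, 24 of 145 alternative values moved beyond these bounds. Over the whole lists, control-only peaks outnumbered gTKO-only peaks, 15471 against 4830. They did so as well in 42 of 48 combinations of a locus, or all 5, with an overlap, width, merging or window alternative. These combinations largely recount the same peaks. The exceptions were 5 at Nrp1, with 2 gTKO-only against 1 control-only peak in narrowed windows and equal numbers in the other 4, and 1 at Flt4, with 1 gTKO-only peak (which overlaps a removed control peak) against 0 control-only peaks of at least 300 bp. No paired analysis was possible because the 3 libraries of a genotype share a single list, so no library could be left out either. Depth is unknown, so its part in these counts was not tested.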
